A study of Mus musculus with 8 samples.

Results

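The genes described here are 4 genes of arginine metabolism, *Nos2*, *Ass1*, *Slc7a2* and *Odc1*, out of 24787 genes listed in single-cell RNA sequencing tables of MC38 tumors. They were chosen by name, with earlier results of these data known, and all 4 were found in the tables. Their transcripts were followed across cell classes gated on marker genes and across 3 treatments, and *Nos2* was also followed within single cells of the monocyte/macrophage gate, which held 5573 of 9827 cells.

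Arginine is a shared substrate of several enzymes. Inducible nitric oxide synthase, encoded by *Nos2*, oxidizes it to citrulline and nitric oxide. *Slc7a2* encodes a cationic amino acid transporter that brings arginine into the cell, *Ass1* encodes argininosuccinate synthase, which starts the rebuilding of arginine from citrulline, and *Odc1* encodes ornithine decarboxylase, which commits ornithine to polyamine synthesis. In cultured macrophages *Nos2* is a classical product of microbial and interferon stimuli, and the enzyme is known from myeloid cells in tumors.

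MC38 is a mouse colon carcinoma line, grown here as a tumor under the skin of female C57BL/6 mice. Tumors were taken 24 hours after dosing with saline (n = 3), with free R848 (n = 3), a small-molecule agonist of the Toll-like receptors TLR7 and TLR8, or with medium R848-BPDs (n = 2), bottlebrush polymers that carry the same drug on a linker of intermediate release rate. No group carried an engineered allele. Cells were split by CD45, mixed at 9 parts CD45+ to 1 part CD45- for each mouse and run on Seq-Well arrays, so that the share of a cell class reflects this mixing as well as the tumor.

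The 8 tables held 10791 barcodes, of which 9827 were kept, at 5867590 to 12422614 unique molecular identifiers (UMIs, which count captured transcripts) per tumor and a median of 3252 to 6995 UMIs per cell. Barcodes present in more than 1 table were few, and 59 such cells were left out. The monocyte/macrophage gate held 503 to 1028 cells per tumor, made of 4557 cells of the macrophage gate, 807 of the monocyte gate and 209 with equal scores, and 96.1% of its cells also fell in monocyte/macrophage clusters. Over monocyte/macrophage cells, the mean correlation of a tumor's log2 levels with those of the other 7 was lowest for medium R848-BPD 2 (0.949) and saline 2 (0.951) and 0.959 to 0.971 for the rest. MC38 cells made up 35.5% of medium R848-BPD 2 and 6.68% to 19.1% of the other tumors. Monocyte/macrophage cells made up 42.4% of medium R848-BPD 2, the lowest share, and 71.4% of saline 2, the highest. Saline 2 had 29 monocyte-gated cells, against 242 and 211 in the other saline tumors. Saline 2 had 9 dendritic cells, under the minimum of 10 set for a tumor to enter a comparison.

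In the reference annotation of the mm10 assembly (GRCm38, GENCODE M21), *Nos2* lies at chr11:78920787-78960254 on the plus strand. *Ass1* lies at chr2:31470207-31520672 and *Odc1* at chr12:17544794-17551505, the latter around a small nucleolar RNA gene on its own strand. *Slc7a2*, at chr8:40862396-40922308, overlaps a noncoding gene on the opposite strand. Whether the counting used strand was not given in the sources used here, so reads of *Slc7a2* could include reads of that neighbor.

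Transcripts of 3 of the 4 genes came mostly from monocyte/macrophage cells, which were 56.7% of the cells kept. They held 82.5% of all *Nos2* UMIs, 86.7% of *Slc7a2* and 74.7% of *Ass1*. *Ass1* had a further 12.6% of its UMIs in dendritic cells, which were 4.92% of the cells. *Odc1* was spread more widely, with 40.9% of its UMIs in monocyte/macrophage cells, 24.5% in MC38 cells, 15.4% in natural killer (NK) cells and 10.5% in T cells.

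*Nos2* was the member that rose in monocyte/macrophage cells of tumors given medium R848-BPDs. This gate pools subsets whose shares the paper reports to differ between medium R848-BPDs and free R848. Whether *Nos2* rose within a subset was not tested. Levels are counts per 1000000 UMIs of the class (CPM). *Nos2* stood at 10.1, 22.8 and 35.3 CPM in the 3 saline tumors, at 44.5, 18.6 and 39.4 CPM after free R848, and at 243 and 482 CPM after medium R848-BPDs. Both medium R848-BPD tumors lay above all 6 others, and the saline and free R848 tumors overlapped. The log2 fold change was 4.09 (SE 0.53) against saline, with an adjusted p of 0.0055, and 3.47 (SE 0.51) against free R848, with an adjusted p of 0.022 (edgeR quasi-likelihood test, Benjamini-Hochberg over 11002 genes). Against saline, *Nos2* passed with each tumor left out, with the smallest value, 3.49, without medium R848-BPD 2 (adjusted p = 0.037). Where a medium R848-BPD tumor was left out, 1 remained, which was assumed to vary as the other groups did. Against free R848 it no longer passed without free R848 1 (3.69, adjusted p = 0.088), free R848 2 (3.15, 0.11), free R848 3 (3.64, 0.11) or medium R848-BPD 2 (2.87, 0.15). Both contrasts share the medium R848-BPD tumors, and the contrasts against saline share the saline tumors.

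**Figure D1:**
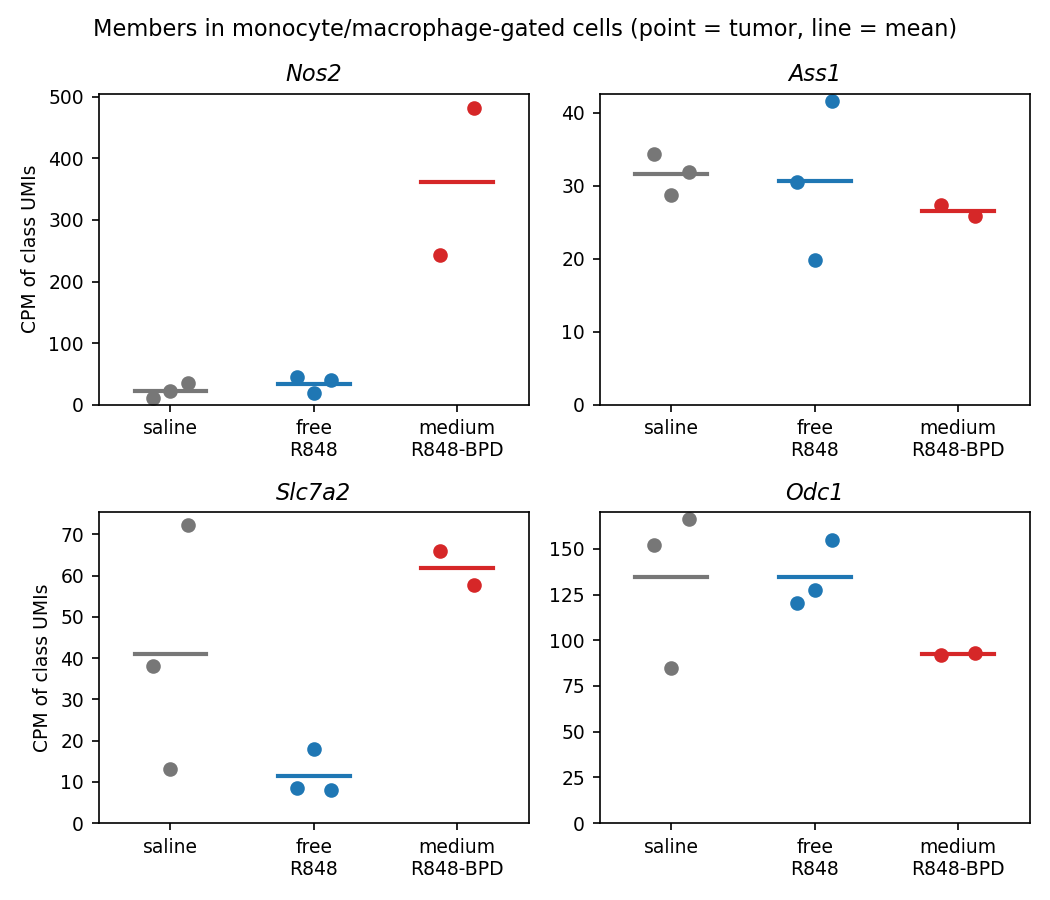
Level of each of the 4 genes in monocyte/macrophage-gated cells, in CPM of the UMIs of the class on linear axes that start at 0, by treatment. Each point is 1 tumor (n = 3 saline, n = 3 free R848, n = 2 medium R848-BPD) and each line is the mean of a group; for *Nos2* the medium R848-BPD points at 243 and 482 CPM sit above all others, and for *Ass1* they lie below the saline points and within the range of free R848.

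The transporter *Slc7a2* was lowest after free R848. Its level was 38.1, 13.1 and 72.2 CPM in saline tumors, 8.55, 18.0 and 8.02 CPM after free R848 and 66.1 and 57.6 CPM after medium R848-BPDs. The free R848 and medium R848-BPD tumors did not overlap, whereas saline tumors overlapped both. *Slc7a2* differed between the R848 forms by a log2 fold change of 2.46 (SE 0.63, adjusted p = 0.12), between free R848 and saline by -1.79 (SE 0.59, adjusted p = 0.37), and between medium R848-BPDs and saline by 0.66 (SE 0.59, adjusted p = 0.55). Without saline 2, *Slc7a2* passed for the R848 forms (2.44, adjusted p = 0.0065) and for free R848 against saline (-2.26, adjusted p = 0.032). Without saline 3 the latter was -1.09 (adjusted p = 0.52), and no tumor left out other than saline 2 gave a call. Medium R848-BPDs against saline ranged from 0.18 without saline 2 to 1.37 without saline 3. DESeq2 on all tumors called the same contrasts of *Slc7a2*, with adjusted p of 0.0014 and 0.049.

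With all tumors in the fit, no contrast was called for *Ass1* or *Odc1*. *Ass1* stood at 34.3, 28.8 and 31.8 CPM in saline tumors, at 30.6, 19.9 and 41.6 CPM after free R848 and at 27.3 and 25.9 CPM after medium R848-BPDs. The medium R848-BPD tumors lay below the saline tumors and within the range of free R848 for *Ass1*, with a log2 fold change of -0.19 (SE 0.30, adjusted p = 0.75) between medium R848-BPDs and saline. *Odc1* stood at 152, 85.1 and 166 CPM, then at 120, 128 and 155 CPM, then at 92.0 and 92.9 CPM, with a log2 fold change of -0.50 (SE 0.31, adjusted p = 0.37) against saline. The medium R848-BPD tumors thus lay below every other tumor except saline 2. Without saline 2, *Odc1* was -0.79 against saline and passed (adjusted p = 0.023), and without saline 3 it was -0.29 (adjusted p = 0.62).

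In all, 1 of the 4 genes, *Nos2*, passed in monocyte/macrophage cells for medium R848-BPDs against saline, where 5.56% of the genes tested passed and 3.16% rose, and the same gene passed against free R848, where 0.936% passed and 0.691% rose. For free R848 against saline edgeR called 0 of the 4 and 0.00909% of all genes. At an unadjusted p under 0.05 it gave 1 of the 4, *Slc7a2*, and 10.5% of all genes. DESeq2 called 1 of the 4 and 53 genes in all. The numbers of genes called in the medium R848-BPD contrasts moved with the tumors that entered, from 88 without medium R848-BPD 2 to 1040 without saline 2 against saline, and from 10 without free R848 2 to 429 without saline 2 against free R848.

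Within the monocyte gate, set on *Ly6c2*, *Plac8*, *Ccr2*, *Chi3l3*, *F10* and *Vcan*, *Nos2* rose after medium R848-BPDs. These markers are not particular to monocytes. They summed to 2186 CPM in monocyte/macrophage cells, and to 2251 in T cells, 1825 in NK cells and 3471 CPM in neutrophils. The monocyte level of *Nos2* was 11.9, 74.0 and 24.3 CPM in saline tumors, 53.8, 15.7 and 25.8 CPM after free R848, and 830 and 710 CPM after medium R848-BPDs. That of *Slc7a2* was 23.8, 0 and 22.7 CPM, then 25, 43.8 and 4.69 CPM, then 166 and 188 CPM. For both genes the medium R848-BPD tumors lay above the other 6, and the share of all genes that did so was not counted. These sums held 185 and 87 *Nos2* UMIs and 37 and 23 *Slc7a2* UMIs, from 40 and 31 cells of the medium R848-BPD tumors, and the other tumors had 29 to 242 monocyte-gated cells. Of the 40 and 31 cells, 14 and 19 were near the cut, with the minimum of markers or a second class that also passed. Over all tumors 236 of 807 were.

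Against saline the monocyte log2 fold change of *Nos2* was 5.02 (SE 0.42, adjusted p = 1.3e-06), in a fit in which 8.05% of 5952 genes passed and 3.65% rose. Against free R848 it was 4.57 (SE 0.40, adjusted p = 2.3e-06), where 4.87% passed and 2.69% rose. With a tumor left out *Nos2* ranged from 4.38 to 5.45 against saline and from 4.29 to 5.21 against free R848, and DESeq2 called it in both contrasts. Where 1 medium R848-BPD tumor remained, these values rest on the spread of the other groups. *Slc7a2* reached the level of the filter on low counts, 26.8 CPM here, in both medium R848-BPD tumors and in 1 of the 6 others, so it was tested only through the group in which it was high and its levels are given as a description. *Ass1* and *Odc1* were not called in monocytes, at -0.39 (SE 0.51, adjusted p = 0.73) and -0.02 (SE 0.35, adjusted p = 0.99) against saline. Free R848 against saline called 0 of the 4 with edgeR, with 0 at an unadjusted p under 0.05 and 0 by DESeq2, and 0.454% of all genes.

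In the macrophage gate alone, *Nos2* was again the member called, by 4.0 (SE 0.57, adjusted p = 0.0066) against saline, where 7.73% of 10721 genes passed, and by 3.47 (SE 0.55, adjusted p = 0.028) against free R848, where 0.989% passed. The call against free R848 was lost without free R848 1 (3.71, adjusted p = 0.096), free R848 2 (3.09, 0.11), free R848 3 (3.68, 0.11) or medium R848-BPD 2 (2.79, 0.18), and with the replicate number as a block (3.71, adjusted p = 0.051). Against saline it passed with each tumor left out, from 3.31 (adjusted p = 0.045, without medium R848-BPD 2) to 4.47. Its level there was 10.1, 22.0 and 38.6 CPM in saline tumors, 42.8, 15.2 and 40.6 CPM after free R848 and 215 and 462 CPM after medium R848-BPDs, so that the medium R848-BPD tumors again lay above the others. *Slc7a2* stood at 44.4, 13.2 and 86.3 CPM, then at 5.95, 13.6 and 9.12 CPM, then at 62.2 and 49.4 CPM in the macrophage gate. Saline and medium R848-BPD tumors overlapped there (0.36, SE 0.62, adjusted p = 0.76). Free R848 and medium R848-BPD tumors did not overlap, with a log2 fold change of 2.60 (SE 0.68, adjusted p = 0.12) that passed by DESeq2 (adjusted p = 0.048) and with these treatments alone (adjusted p = 0.0035). Without saline 2, edgeR called *Slc7a2* between the R848 forms (2.60, adjusted p = 0.0064) and for free R848 against saline (-2.74, adjusted p = 0.020), and *Odc1* for medium R848-BPDs against saline (-0.88, adjusted p = 0.018). For free R848 against saline 0 of the 4 genes passed there with edgeR (1, *Slc7a2*, at an unadjusted p under 0.05, and 0 by DESeq2), beside 0.00933% of all genes. Whether monocyte-gated and macrophage-gated cells responded differently was not tested.

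Outside the monocyte and macrophage gates edgeR called no member with all tumors and the filter on low counts. Without the filter it called 2 in dendritic, 2 in NK, 1 in T and 1 in MC38 cells in each medium R848-BPD contrast. The shares of all genes in those fits are not given. In monocyte/macrophage cells the genes called against saline went from 612 to 1725 without the filter, so nothing is read from these counts. In MC38 cells, the tumor cells themselves, *Nos2* stood at 1.83, 13.3 and 1.28 CPM in saline tumors, at 5.73, 2.36 and 4.49 CPM after free R848 and at 21.4 and 20.2 CPM after medium R848-BPDs. Both medium R848-BPD tumors lay above the other 6, with saline 2 next. *Nos2* in MC38 cells differed from saline by 1.61 (SE 0.56, adjusted p = 0.23) and from free R848 by 2.30 (SE 0.58, adjusted p = 0.12). Without saline 2 it was 3.62 (adjusted p = 0.011) and 2.30 (adjusted p = 0.022), and both passed.

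The *Nos2* response in MC38 cells minus that in monocyte/macrophage cells was -2.65 (SE 0.61, adjusted p = 0.074) against saline, so a smaller response in the tumor cells was not established. Against free R848 that difference was -1.17 (SE 0.63, adjusted p = 0.60). With edgeR no member's response was called different between MC38 and monocyte/macrophage cells. Of 11751 genes, 0% differed for free R848 against saline, 0.885% for medium R848-BPDs against saline and 0.204% against free R848. At an unadjusted p under 0.05 these contrasts gave 2 members and 685 genes, 1 member (*Nos2*) and 1583 genes, and 1 member (*Slc7a2*) and 1130 genes. DESeq2 was not run for this comparison. The macrophage markers in MC38 cells of the medium R848-BPD tumors were at 0.880% and 0.762% of their monocyte/macrophage level and *Nos2* at 8.82% and 4.20%.

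In dendritic cells *Nos2* had 0 UMIs in the saline tumors, which allows up to 3.49 CPM, 2 UMIs in the free R848 tumors, and 14 and 18 UMIs in the medium R848-BPD tumors, in 4 cells each. It did not pass the filter on low counts there, and neither did *Slc7a2*. None of these *Nos2*-positive dendritic cells of the medium R848-BPD tumors fell in a monocyte/macrophage cluster (0 UMIs). For *Ass1* and *Odc1*, the members tested, edgeR called 0 in dendritic cells (0 at an unadjusted p under 0.05, and 0 by DESeq2, which gave no adjusted p for *Ass1* against free R848 or for either gene between free R848 and saline), where 10.8% of 5307 genes passed for medium R848-BPDs against saline, 0.509% against free R848 and 2.79% for free R848 against saline. *Ass1* differed there by 0.34 (SE 0.35, adjusted p = 0.62) between medium R848-BPDs and saline. Between dendritic and monocyte/macrophage cells no member's response differed by edgeR. Of 10561 genes 3.3%, 0.653% and 1.4% differed, in the same order of contrasts. At an unadjusted p under 0.05, 1 member, *Slc7a2*, and 1350 genes differed for medium R848-BPDs against saline.

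T and NK cells had few *Nos2* UMIs, and *Odc1* was the only member tested in them. *Nos2* in NK cells was at 0 to 4.03 CPM in the saline and free R848 tumors and at 1.09 and 67.4 CPM after medium R848-BPDs. In medium R848-BPD 2, 14 of the 21 UMIs were in 1 cell and 7 were in 4 NK-gated cells that clustered with monocyte/macrophage cells. *Nos2* in T cells was at 0 to 11.7 CPM in the saline and free R848 tumors and at 21.3 and 100.1 CPM after medium R848-BPDs, from 15 and 14 UMIs, of which 8 and 1 were in cells of monocyte/macrophage clusters. *Odc1* differed between medium R848-BPDs and saline by -0.27 (SE 0.25, adjusted p = 0.96) in T cells and by 0.01 (SE 0.23, adjusted p = 0.996) in NK cells. For free R848 against saline 0% of genes passed in T, NK and MC38 cells. The shares of all genes that passed for medium R848-BPDs against saline and against free R848 were 0.2% and 0.167% in T cells, 0.504% and 0.164% in NK cells and 0.57% and 0.152% in MC38 cells.

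Fibroblasts, neutrophils and cells of the osteoclast-like gate were not tested between treatments, since some groups had fewer than 2 tumors with at least 10 of these cells. The 101 osteoclast-like cells of the saline and free R848 tumors had 0 *Nos2* UMIs of 1092611, which allows up to 2.75 CPM. The medium R848-BPD tumors had 2 such cells. At least 10 fibroblasts were present only in the medium R848-BPD tumors, 11 and 25 cells. *Nos2* stood there at 153 and 724 CPM, from 27 and 154 UMIs in 4 and 14 cells. That was 63.1% and 150% of the monocyte/macrophage level of the same tumors, while the macrophage markers in these fibroblasts were at 0.538% and 0.590% of theirs. The monocyte markers summed to 2698 and 3408 CPM in these fibroblasts against 1153 and 1320 CPM in monocyte/macrophage cells, through *Plac8* (1672 and 2637 CPM) and *Vcan* (1009 and 733 CPM). Of the others, *Ly6c2* stood at 17.0 and 28.2 CPM, *Ccr2* at 0 and 9.40 CPM, and *F10* and *Chi3l3* at 0. None of these *Nos2* UMIs lay in cells of monocyte/macrophage clusters. The 8 fibroblasts of the other tumors had 0 *Nos2* UMIs of 86812, which allows up to 34.6 CPM. That upper limit and those given for other counts of 0 cover counting error only.

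Neutrophils, with at least 10 cells in 3 tumors, had *Nos2* at 25.4 CPM in free R848 3 and at 251 and 219 CPM in the medium R848-BPD tumors. In free R848 1, 8 neutrophils, under the minimum of 10, held 11 *Nos2* UMIs of 30967, a larger share than in any of those 3 tumors. The values of the 3 tumors rest on 3, 25 and 22 UMIs, and 4 of the 25 were in 1 cell that clustered with monocyte/macrophage cells. The macrophage markers in these neutrophils were at 7.55%, 1.53% and 8.44% of their monocyte/macrophage level. *Odc1* in neutrophils stood at 127, 141 and 149.5 CPM, and *Ass1* had 0, 2 and 0 UMIs.

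**Figure D2:**
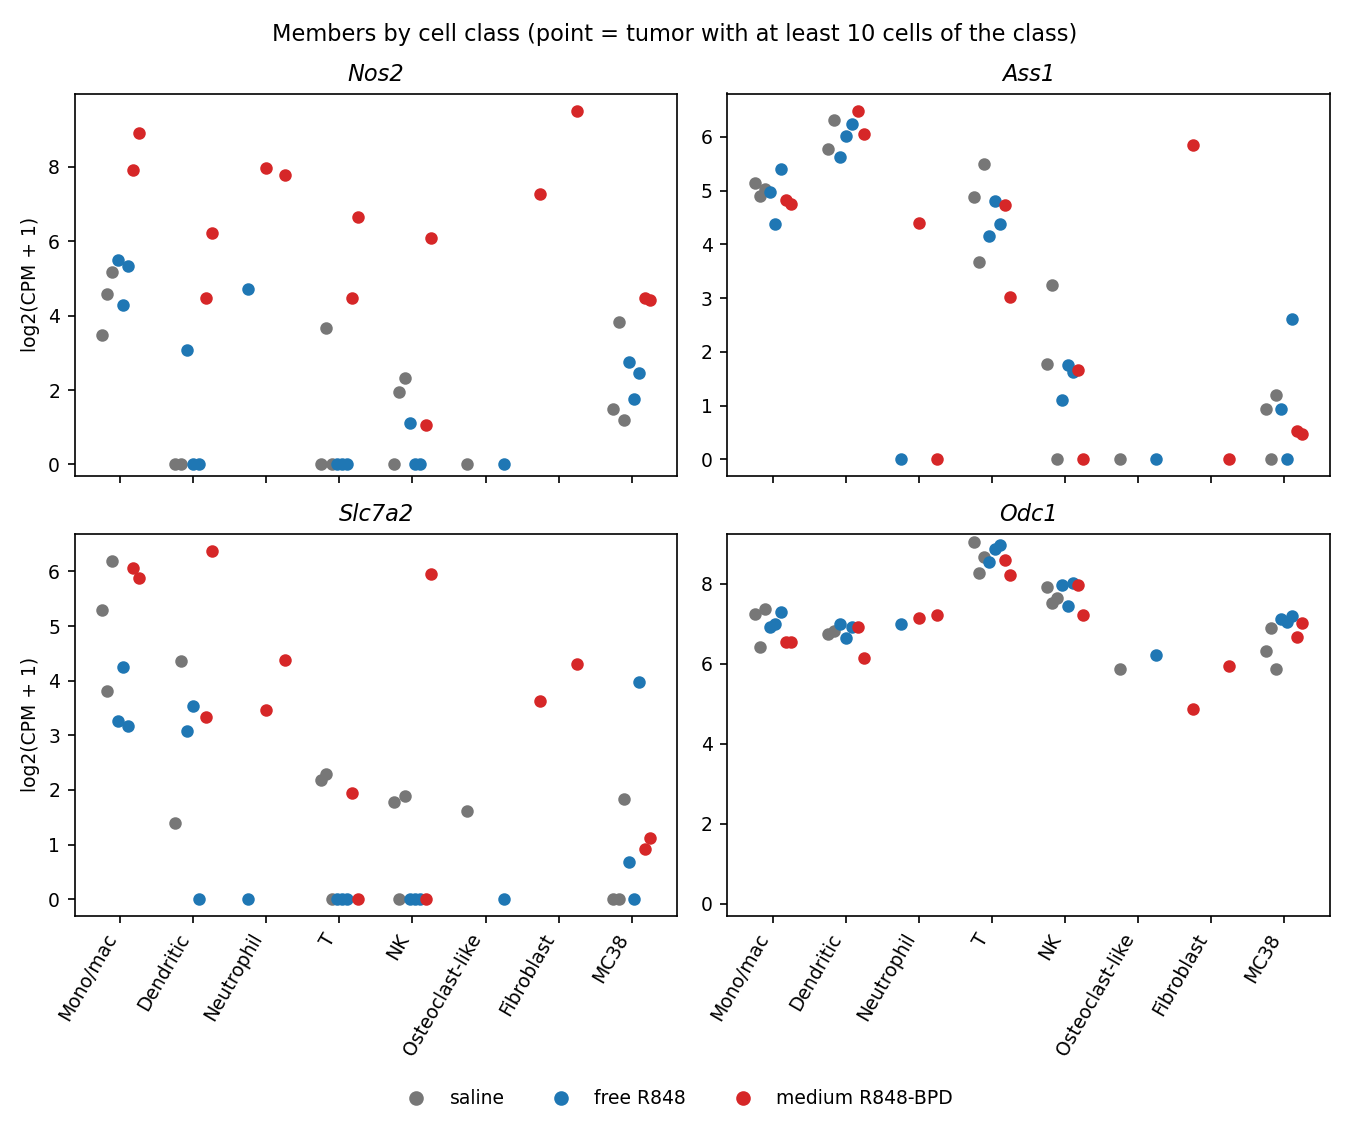
Level of each gene by cell class as log2(CPM + 1). Each point is 1 tumor with at least 10 cells of the class, colored by treatment, and points at 0 are sums without a UMI; over classes with at least 3 tumors the mean log2 level is highest in monocyte/macrophage cells for *Slc7a2*, in dendritic cells for *Ass1* and in T cells for *Odc1*, and for *Nos2* in neutrophils, whose mean covers free R848 3 and both medium R848-BPD tumors only.

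Ordered by mean log2 level over tumors, each gene had its own rank of classes, and few neighbors in these orders differed beyond their spread. The neighbors were picked from these same levels, and their p-values do not allow for that choice. For *Nos2* the order of means was neutrophil, monocyte/macrophage, MC38, dendritic, T and NK cells, but the neutrophil mean covers 3 tumors, 2 of them given medium R848-BPDs. Within those 3 tumors *Nos2* in neutrophils minus monocyte/macrophage cells was -0.56 ± 0.59 on the log2 scale (higher in 1 of 3, exact p = 0.50, where the smallest p is 0.25). With classes from clusters the direction turned, to 0.66 ± 1.14 in 5 tumors (higher in 4 of 5, exact p = 0.12). *Nos2* was higher in monocyte/macrophage than in MC38 cells in 8 of 8 tumors, by 2.78 ± 1.17 (SD) on the log2 scale (exact sign-flip permutation test, two-sided, p = 0.0078, the smallest it allows, adjusted p = 0.039 over 5 neighbor pairs). With classes from clusters this was 2.40 in 7 of 8 tumors and no longer passed (exact test, adjusted p = 0.078).

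For *Ass1* the order was dendritic, monocyte/macrophage, T, neutrophil, NK and MC38 cells. *Ass1* was 48.5 to 88.5 CPM in dendritic cells of 7 tumors and higher there than in monocyte/macrophage cells of the same tumor in 7 of 7, by 1.13 ± 0.43 (exact p = 0.016, the smallest it allows, adjusted p = 0.078). *Slc7a2* followed the order monocyte/macrophage, dendritic, neutrophil, NK, MC38 and T cells, and no neighbors passed (smallest adjusted p = 0.23, exact).

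*Odc1* had a different order, led by lymphocytes. Its level was 300.3 to 530 CPM in T cells, 148 to 261 CPM in NK cells and 124 ± 31.7 CPM (SD, n = 8) in monocyte/macrophage cells. *Odc1* was higher in T than in NK cells in 8 of 8 tumors, by 0.93 ± 0.29 (exact p = 0.0078, adjusted p = 0.039), and no other neighbors in its order passed. With classes from clusters it was 0.42 in 7 of 8 tumors and no longer passed (exact test, adjusted p = 0.078).

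The share of monocyte/macrophage cells with a *Nos2* transcript was highest in the medium R848-BPD tumors. Shares were counted after thinning each cell to 1000 UMIs, with 24 shallower cells left out, 0 to 12 per tumor. *Nos2* was detected in 0.768%, 2.34% and 2.55% of cells in saline tumors, in 5.23%, 1.25% and 2.4% after free R848, and in 17.3% and 23.4% after medium R848-BPDs. The medium R848-BPD tumors lay above the other 6, which overlapped.

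Against saline the mean share of *Nos2* cells differed by 18.5 percentage points (exact permutation test over tumors, two-sided, p = 0.10, the smallest that 2 against 3 tumors allow). Against free R848 the difference was 17.4 points (exact p = 0.10), and free R848 and saline differed by 1.08 points (exact p = 0.50). Without thinning, *Nos2* was detected in 39.7% ± 1.95 (SD, n = 2) of cells after medium R848-BPDs against 6.67% ± 2.99 (n = 3) in saline tumors and 9.27% ± 4.33 (n = 3) after free R848. As a measure of background, the same share was taken in T and NK cells, at median depths of 2705.5 to 6453 and 3418.5 to 7772.5 UMIs against 3259 to 6422 in monocyte/macrophage cells. In the saline and free R848 tumors, NK cells had a *Nos2* UMI in 0 to 1.16% of cells and T cells in 0 to 4.65%, the latter 2 of 43 cells in saline 2. Of these 2 T cells, 1 lay in a monocyte/macrophage cluster. So did 88 of all 461 T-gated and 34 of 946 NK-gated cells, so this background may include monocyte/macrophage cells. Shares of 0 there, in 5 of 6 tumors for each class, allow up to 1.84% to 4.92% of NK cells and 4% to 5.77% of T cells. The share in monocyte/macrophage cells was above that in NK cells of the same tumor in 8 of 8 tumors and above that in T cells in 7 of 8, all but saline 2. In the medium R848-BPD tumors NK cells had 0.488% and 5.66% and T cells 1% and 0. At these cell numbers the low shares of most saline and free R848 tumors lay within what a count of 0 in T or NK cells allows.

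Without thinning, 38.3% and 41.1% of monocyte/macrophage cells held a *Nos2* UMI in the medium R848-BPD tumors and 3.44% to 14.1% in the others. Cells with *Nos2* held a median of 3 and 4 UMIs after medium R848-BPDs and of 1 or 2 in the other tumors, so the higher level came with more UMIs per positive cell as well as with more positive cells. The highest count in 1 cell was 53 UMIs, in medium R848-BPD 2. *Slc7a2* was held by 15.3% and 10.3% of cells after medium R848-BPDs, not thinned, by 8.93%, 6.23% and 13.8% in saline tumors and by 3.42%, 4.99% and 3.38% after free R848, the group with its lowest level.

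**Figure D3:**
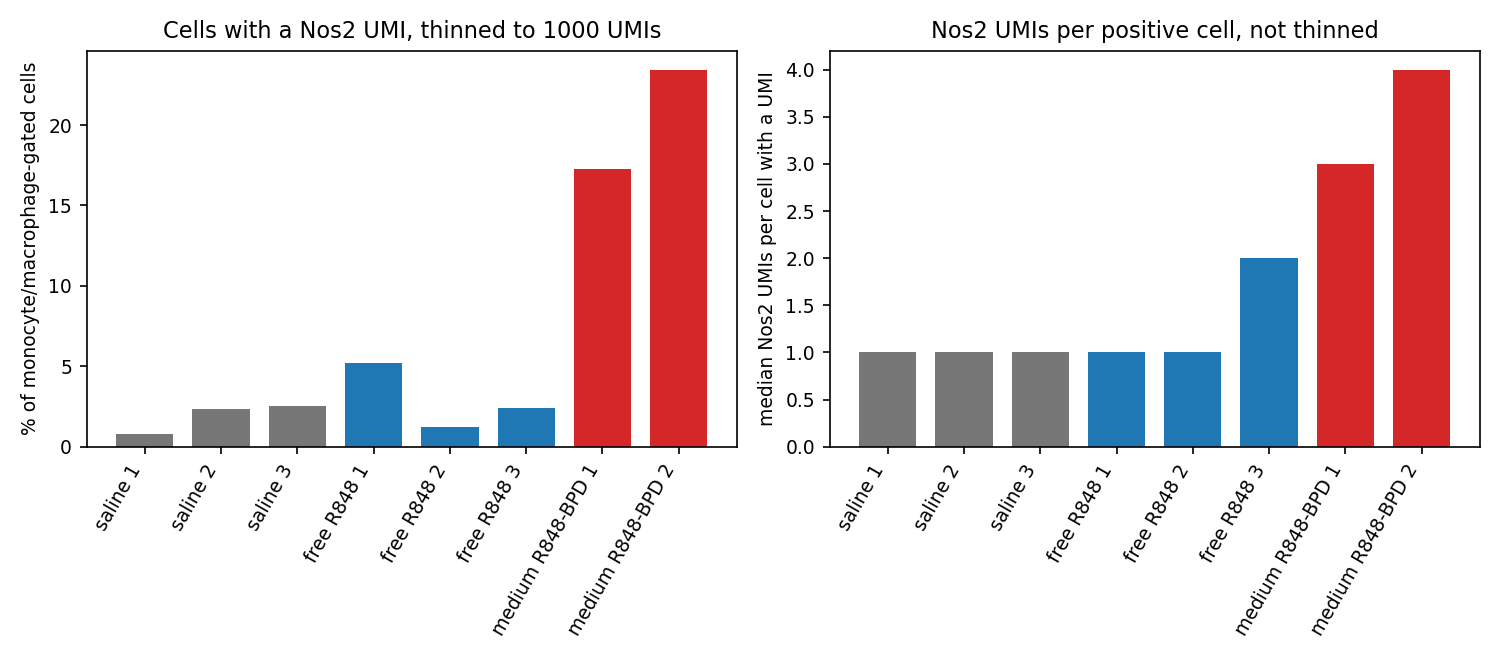
Left, share of monocyte/macrophage-gated cells (percent) with at least 1 *Nos2* UMI after thinning each cell to 1000 UMIs. Right, median number of *Nos2* UMIs in the cells that had any, without thinning; bars are single tumors colored by treatment (gray saline, blue free R848, red medium R848-BPD), and the medium R848-BPD tumors are highest in both panels, at 17.3% and 23.4% and at 3 and 4 UMIs.

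Beyond the 4 members, 51 other genes of arginine transport and the urea cycle, nitric oxide and its cofactor tetrahydrobiopterin, polyamines, and proline, glutamate and creatine were followed in monocyte/macrophage cells, of which 40 passed the filter. Against saline, 2 of the 40 passed after medium R848-BPDs, beside 5.56% of all genes, so the share called was near that of all genes. *Paox*, which oxidizes acetylated polyamines, stood at 15.2, 13.1 and 13.0 CPM in saline tumors, at 15.5, 19.2 and 13.5 CPM after free R848 and at 21.4 and 27.6 CPM after medium R848-BPDs, and rose by 0.88 (SE 0.21, adjusted p = 0.047). *Atp13a3*, a polyamine transporter gene, stood at 93.9, 86.0 and 97.6 CPM, then at 63.9, 63.5 and 53.2 CPM, then at 49.6 and 48.6 CPM, and fell by 0.86 (SE 0.14, adjusted p = 0.011). Medium R848-BPD and saline tumors overlapped for neither gene, and for *Atp13a3* free R848 and saline tumors did not overlap either (-0.62, SE 0.12, adjusted p = 0.29). The call of *Paox* was lost with any tumor left out (0.67 to 1.08, adjusted p from 0.063 to 0.31), with the replicate block (0.84, adjusted p = 0.098) and with classes from clusters (0.86, adjusted p = 0.061). That of *Atp13a3* was lost without either medium R848-BPD tumor (-0.86 in both fits, adjusted p = 0.071 and 0.11). With saline and medium R848-BPD tumors alone in the fit neither gene passed (adjusted p = 0.12 for *Paox* and 0.059 for *Atp13a3*).

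For medium R848-BPDs against saline the median log2 fold change was 0.03 over 14 polyamine genes (1 rose, 1 fell), 0.00 over 7 genes of transport and the urea cycle, -0.25 over 10 of nitric oxide and its cofactor and -0.80 over 9 of proline, glutamate and creatine, beside -0.01 over all 11002 genes. In the last 3 lists edgeR called 0 genes, with 3 in each at an unadjusted p under 0.05, beside 23.1% of all genes at that level. Named after their values were seen, these were *Slc7a1* (-0.66), *Slc7a7* (0.59) and *Cad* (-0.76) of transport and the urea cycle, *Qdpr* (-0.36), *Ddah2* (-1.35) and *Nosip* (0.42) of nitric oxide, and *Aldh18a1* (-0.91), *Gamt* (-0.80) and *Ckb* (-1.06) of proline, glutamate and creatine, with adjusted p from 0.054 to 0.17. Against free R848, and for free R848 against saline, edgeR called 0 of the 40 genes, and DESeq2 0 and 1.

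Over the 6 classes with at least 3 tumors, the class profile of *Nos2* was most like those of *Ankfy1* (Pearson r 0.996), *Alas1* (0.995), *Atp6v1e1* (0.991), *Atg3* (0.988) and *Saa3* (0.984), out of 7968 genes, which like *Nos2* had their highest mean in neutrophils. The neutrophil mean covers 3 tumors, 2 of them given medium R848-BPDs, and within tumors the difference of *Nos2* between neutrophils and monocyte/macrophage cells was -0.56 by gates and 0.66 by clusters. These correlations run over 6 points that share tumors and are descriptions.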

How the data were processed

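The authors deposited 1 table per tumor of whole-number UMI counts per gene and barcode, not normalized. Reads were demultiplexed with bcl2fastq and aligned to mm10, per the submitters' processing notes; the aligner, the annotation and the use of strand were not given in the sources used here. The labels describe loading per mouse, so each table is 1 mouse.

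The study's limits were applied: a cell needed over 400 but under 10000 detected genes, under 50000 UMIs and no more than 15% of them mitochondrial. The files hold no cell types. Each cell was given the class of the marker list with most detected genes relative to a minimum of 2 to 4 markers, a rule set after marker counts had been seen, and 581 cells stayed ungated; clusters (scanpy 1.11.5) served as an alternative. Doublets (Scrublet, 127 called, 70 of them in the monocyte/macrophage gate) were kept in the main results. The classes are rebuilt and may differ from those of the study.

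Counts were summed per tumor and class (at least 10 cells) and tested with the quasi-likelihood test of edgeR 4.0.16 (TMM, filterByExpr, all 3 treatments in 1 fit, adjusted p under 0.05, Benjamini-Hochberg over all genes of a fit). The study tested expression over single cells with a Wilcoxon test, and shares of cell subsets with Fisher exact tests and Dirichlet regression. CPM is the count per 1000000 UMIs of the class, and class orders used log2 CPM with a prior count of 2. Alternatives were DESeq2 1.42.0, other size factors, no filter, pairwise fits, a replicate block, clusters, doublets left out, deeper cells, other thinning and each tumor left out. On simulated counts for 11002 genes, 79.5% of 200 genes changed by fixed folds between medium R848-BPDs and saline were recovered, with 6 false calls. The spread there followed the trend over genes alone, without unusual genes or tumors. These figures therefore do not give the power or error rate in the real counts.

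The members and all lists were chosen with earlier results of these data known. Statements that groups of tumors did or did not overlap are descriptions, and the share of all genes without overlap was not counted. Other genes of the set, and planned comparisons that need them, are not reported here. Named genes were the 4 members, the list genes called in monocyte/macrophage cells (at most 12) and the 5 genes most like *Nos2* over classes; list genes named without a call against saline were chosen after their values were seen. Gene positions are from the GENCODE M21 annotation of GRCm38, the build named as mm10. Same-numbered tumors of different groups correlated at -0.30 to 0.25 in their deviations, over 0.1 in 1 of 7 pairs, so the numbers were not taken to pair them.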

Additional observations from a re-analysis of the deposited data

How the results depend on the processing

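Of the 4 genes, 0, 1 and 1 were called in monocyte/macrophage cells for free R848 against saline, medium R848-BPDs against saline and medium R848-BPDs against free R848 (contrasts in this order throughout), of 1, 612 and 103 genes in all and of 0, 2 and 0 pathway genes. These counts changed with the settings. The cause was not tested, and where tumors or groups were left out the counts moved in both directions. DESeq2 called 1 member, 53 genes and 1 pathway gene in the first contrast and 2 members and 310 genes in the last. Without the filter on low counts 2, 2 and 2 members, 516, 1725 and 898 genes and 4, 8 and 4 pathway genes passed. With the compared treatments alone, 131 genes and 0 pathway genes passed against saline, and 2 members, 351 genes and 1 pathway gene between the R848 forms. Clusters gave 2 genes in the first contrast. With each tumor left out, 0 to 1, 1 to 2 and 0 to 2 members, 1 to 40, 88 to 1040 and 10 to 429 genes, and 0 to 1, 0 to 2 and 0 to 1 pathway genes passed.

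A replicate block gave 366 and 51 genes in the medium R848-BPD contrasts, 1 pathway gene against saline and 0 members between the R848 forms in the macrophage gate (*Nos2* 3.71, adjusted p = 0.051). The tumors share only a number, and not every tumor correlated best with its own.

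In the macrophage gate, DESeq2, the compared treatments alone and no filter called 2, 2 and 3 members between the R848 forms, and no filter called 1 and 2 in the other contrasts. The shares of all genes called in these fits are not given, so the counts are not read as particular to the members. The range without a tumor was 0 to 1, 1 to 2 and 0 to 2. In the monocyte gate edgeR called 2 members in both medium R848-BPD contrasts, *Slc7a2* among them through the medium R848-BPD tumors alone. DESeq2 called 1 there between the R848 forms, *Nos2*, and gave *Slc7a2* no adjusted p. Without the filter, dendritic cells had 2 and 2 members called in the medium R848-BPD contrasts, NK cells 2 and 2, T cells 1 and 1, and MC38 cells 1, 1 and 1 over the 3 contrasts. The shares of all genes in these fits are not given. In dendritic, NK and T cells, *Nos2* and *Slc7a2* reached the level of the filter in no saline or free R848 tumor, so nothing is read from these counts. MC38 cells also had 1 between the R848 forms with the compared treatments alone. Without a tumor the ranges were 0 to 1 in dendritic cells against saline, and in the medium R848-BPD contrasts 0 to 2 and 0 to 2 in NK cells and 0 to 1 and 0 to 1 in MC38 cells. The calls in dendritic and NK cells came without medium R848-BPD 1, where *Nos2* and *Slc7a2* passed the filter through the lone medium R848-BPD 2, so nothing is read from them. Those in MC38 cells came without saline 2.

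Values near 0 changed sign. For free R848 against saline, *Odc1* was -0.01, and 7.8e-05 without the filter, 0.028 with the block and 0.024 with clusters. *Ass1* between the R848 forms was -0.14, and 0.068 with the block. Without a tumor these and *Ass1* for free R848 against saline ranged from -0.30 to 0.20, -0.40 to 0.19 and -0.38 to 0.21. The difference in *Nos2* share between free R848 and saline ranged from -0.059 to 1.93 percentage points.

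With classes from clusters, *Nos2* in monocyte/macrophage above MC38 cells (2.40) and *Odc1* in T above NK cells (0.42) no longer passed, while *Ass1* in dendritic above monocyte/macrophage cells (0.97) and in these above T cells (1.19) did. Orders of neighbors that had not differed turned for *Nos2* in neutrophils minus monocyte/macrophage cells (0.66), *Ass1* in T minus neutrophils (-0.65) and *Slc7a2* in NK minus MC38 cells (-0.52).

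With 2 or 3 tumors a group, a contrast that misses the threshold does not show that groups are alike. Neutrophils, fibroblasts and osteoclast-like cells, with fewer than 2 tumors in some groups, were not tested between treatments.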
